A study of Mus musculus with 6 samples.

Results

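The genes described here encode the proteins of the mitochondrial ribosome. They were taken from the deposited table as the rows whose gene symbol is Mrpl or Mrps followed by a number and at most 1 letter, which gave 72 of 10989 genes. By symbol, 45 belong to the large subunit (Mrpl) and 27 to the small subunit (Mrps). The name rule itself uses no measured value, but the members were chosen with earlier results of these data known. The study sequenced total RNA from the brain of mice with the genotype Tie2-cre+; NuTRAP+, labelled WT in the library titles, in 3 libraries of the whole dissociated cell suspension (Input) and 3 libraries of sorted endothelial cells (Positive). All 6 libraries thus carry both alleles. NuTRAP is a reporter that tags ribosomes with EGFP and nuclei with mCherry once Cre has acted, and Tie2 (Tek) is a promoter active in endothelial cells and in some blood and myeloid cells. The sort gate was EGFP+/CD31+/CD11b-. Replicates are numbered 1222, 1223 and 1227 in each fraction and are called biological in the series text. The labels name no treatment, and age and sex are not used here.

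The mitochondrial ribosome sits in the matrix and translates the few proteins encoded by mitochondrial DNA, which are core subunits of the respiratory chain and the ATP synthase. Its RNAs come from mitochondrial DNA, while its proteins come from nuclear genes, are made in the cytosol and are imported. Some of the proteins have counterparts in the bacterial ribosome, and others exist only in mitochondria. The small subunit reads the messenger RNA and the large subunit forms the peptide bond. Brain endothelial cells form the blood-brain barrier and are known for many mitochondria.

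Summed estimated counts per library ran from 4814966 to 52283556 in Input and from 4772866 to 23525401 in Positive, and replicate 1223 was the shallowest in both fractions. There the median member had 123 counts in Input and 114.6 in Positive. Levels are in CPM, the count divided by the TMM-adjusted library size and multiplied by a fixed factor. All 8 endothelial markers listed were higher in Positive, with summed levels of 2805 to 3895 CPM in Input and 20240 to 22040 in Positive. The 7 microglia markers were lower in Positive but still summed to 1313 to 2631 CPM there, against 5842 to 10560 in Input. Markers of oligodendrocytes (18550 to 27350 CPM in Input, 620.2 to 1349 in Positive) and astrocytes (5310 to 8326, 525.5 to 824.3) were lower too. So were the tested markers of choroid plexus (2747 to 6195 in Input, 347.6 to 916.8 in Positive), erythroid cells (4451 to 10010, 1481 to 2512), neurons and ependymal cells. The 7 pericyte markers rose with the endothelial ones, from 641 to 770 CPM in Input to 1242 to 1981 in Positive, and 5 of 6 perivascular macrophage markers were also higher (227 to 304 CPM in Input, 279 to 1945 in Positive). No tested marker was at 0 in every Positive library. The part of these other cells in the values below was not tested.

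Promoter sequences are given for 4 of the 5 members that differed between the fractions, since those results follow below, and for Mrpl17, the member with the highest level per length in Positive. Each is the 250 bases before the transcript start from RefSeq (GRCm38.p6), written 5′ to 3′ on the gene's strand. Capitals mark matches, on either strand, to CGCATGCG (the NRF1 core), GCGCANGCG (an NRF1 form with 1 free base, chosen after the sequences were seen, which overlaps the core), CCGGAAG (ETS factors and GABP), AAGATGGC (YY1) or CCAAT (NF-Y).
Mrps6, chr16:92058086-92058335, plus strand: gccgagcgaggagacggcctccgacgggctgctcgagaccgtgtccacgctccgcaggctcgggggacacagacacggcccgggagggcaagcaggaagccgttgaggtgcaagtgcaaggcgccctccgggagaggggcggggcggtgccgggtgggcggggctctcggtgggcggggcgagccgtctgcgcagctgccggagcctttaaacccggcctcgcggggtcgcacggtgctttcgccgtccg
Mrpl28, chr17:26123253-26123502, plus strand: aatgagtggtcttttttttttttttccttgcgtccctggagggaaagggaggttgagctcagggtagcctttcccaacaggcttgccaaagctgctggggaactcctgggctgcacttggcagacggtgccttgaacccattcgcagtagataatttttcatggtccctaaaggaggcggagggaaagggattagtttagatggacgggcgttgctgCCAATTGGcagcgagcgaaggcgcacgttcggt
Mrps5, chr2:127587176-127587425, plus strand: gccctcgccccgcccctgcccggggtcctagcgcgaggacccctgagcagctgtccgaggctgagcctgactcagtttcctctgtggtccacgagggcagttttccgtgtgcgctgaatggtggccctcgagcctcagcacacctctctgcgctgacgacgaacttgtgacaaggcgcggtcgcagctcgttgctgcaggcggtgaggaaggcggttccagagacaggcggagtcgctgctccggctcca
Mrpl44, chr1:79775768-79776017, plus strand: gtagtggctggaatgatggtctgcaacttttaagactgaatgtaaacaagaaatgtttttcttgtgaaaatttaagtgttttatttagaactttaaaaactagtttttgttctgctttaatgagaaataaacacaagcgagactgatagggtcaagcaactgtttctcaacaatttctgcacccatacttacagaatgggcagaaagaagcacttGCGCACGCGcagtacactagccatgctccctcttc
Mrpl17, chr7:105811088-105811337, minus strand: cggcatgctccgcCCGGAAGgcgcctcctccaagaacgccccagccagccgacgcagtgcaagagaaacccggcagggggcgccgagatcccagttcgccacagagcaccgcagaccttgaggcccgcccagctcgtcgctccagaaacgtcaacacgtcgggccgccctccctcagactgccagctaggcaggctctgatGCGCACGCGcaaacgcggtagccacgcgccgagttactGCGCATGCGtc
Mrps6 and Mrps5 held none of these letters in the stretch shown, Mrpl28 held overlapping CCAAT matches on both strands, Mrpl44 held the NRF1 form with 1 free base, and Mrpl17 held that form, the NRF1 core and CCGGAAG. The RefSeq table matched 63 of the 72 members by gene identifier. Mrpl4 is among the others. In the full window of 300 bases, which runs 50 bases past the start, CCGGAAG was found in 22 of the 63 members (34.9%), against 19.4% of the genes of the deposited table that have a window and 8.86% of all 32851 windows. AAGATGGC was found in 12 members (19%), against 5.33% of the table's genes and 2.75% of all windows. CGCATGCG was found in 6 members (9.52%), all of the large subunit, against 4.3% of the table's genes and 1.87% of all windows. The looser NRF1 form was in 14 members (22.2%; 15.4% of the table's genes and 6.25% of all windows), and CCAAT was in 27 (42.9%; 42.9% and 37.4%). These are letter matches, with no measurement of binding.

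Mitochondrial ribosomal protein genes were close to level between sorted endothelial cells and the brain suspension. Only 5 of the 72 (6.94%) differed at an adjusted p below 0.05, against 55.5% of all 10989 genes tested (edgeR's quasi-likelihood test, Benjamini-Hochberg adjustment over all genes). Mrps6 and Mrpl28 were lower in Positive, where 29.4% of all genes were lower, and Mrpl4, Mrps5 and Mrpl44 were higher, where 26.1% of all genes were higher. The median log2 fold change (Positive over Input) of the members was -0.03, with quartiles of -0.19 and 0.16, beside a median of 0.03 and quartiles of -0.83 and 0.54 over all genes. Of the members, 67 (93.1%) lay within 0.5 of 0 on the log2 scale, as did 42% of all genes, and Mrps6 alone (1.39% of the members) changed by more than 1, as did 35.5% of all genes. At an unadjusted p below 0.05 there were 6 members, the 5 above and Mrps12. In bulk libraries, fewer cells of a type and less RNA per cell cannot be told apart.

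For 64 of the 67 members that were not called, the 95% confidence interval of the fold change lay inside 1 log2 unit (a 2-fold change) in either direction, and the median half-width of these intervals was 0.46. Only 14 of the 67 intervals lay within 0.5, so differences smaller than 2-fold were less well bounded. The levels of 17 members (23.6%) did not overlap between the 3 Input and 3 Positive libraries, 9 of them higher and 8 lower in Positive, against 64.4% of all genes. For 34 members (47.2%), 1222, 1223 and 1227 all moved the same way, against 79.5% of all genes. The header of the deposited table keeps genes with at least 50 counts in every library of 1 fraction, and 66 members met this in both fractions. Mrpl1 and Mrpl21 met it through Positive alone and Mrpl22, Mrps10, Mrps12 and Mrps36 through Input alone. None of these 6 was called by edgeR with TMM scaling, and Mrps12 was called lower by DESeq2 and with library size alone.

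**Figure D1:**
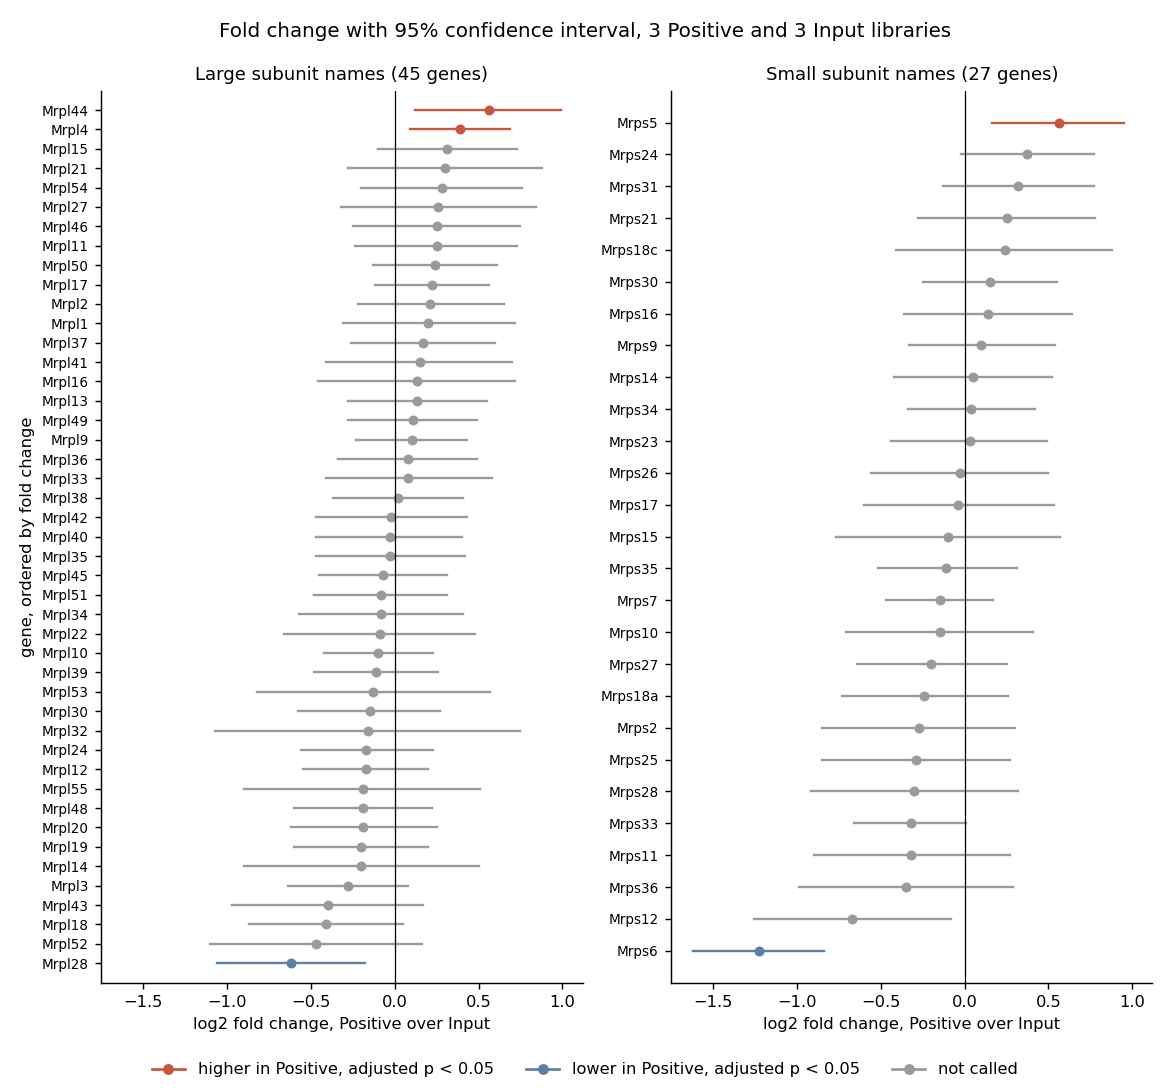
Log2 fold change (Positive over Input, x axis) of each of the 72 members (y axis), in 2 panels for the 45 large and 27 small subunit names. Points are fitted values, bars are 95% confidence intervals from 3 libraries a fraction, and colours mark the 3 members called higher and the 2 called lower; Mrps6 alone lies beyond 1.

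Both subunits sat near 0. Of the 45 large subunit genes, 2 were higher, 1 was lower and 42 were not called, with a median log2 fold change of -0.03 and a range from -0.62 to 0.56. Of the 27 small subunit genes, 1 was higher, 1 was lower and 25 were not called, with a median of -0.10 and a range from -1.23 to 0.56. Grouped by origin, the 45 members with a bacterial counterpart had 2 higher, 2 lower and a median of -0.08, and the 27 mitochondria-specific ones had 1 higher, 0 lower and a median of -0.03. The summed level of all members was 1696, 1892 and 1924 CPM in Input (replicates 1222, 1223 and 1227) and 1621, 1883 and 1888 CPM in Positive. These ranges overlap. In each replicate number the Positive sum was the lower one.

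The large subunit summed to 1105, 1223 and 1248 CPM in Input and to 1070, 1244 and 1248 CPM in Positive, which overlap. The small subunit summed to 591.8, 669.1 and 676 CPM in Input and to 551.3, 639 and 640.2 CPM in Positive, which also overlap. The small subunit sum was lower in Positive within each of the 3 replicate numbers, while the large subunit sum was lower in 1222 and higher in 1223. The ratio of the large to the small sum was 1.87, 1.83 and 1.85 in Input and 1.94, 1.95 and 1.95 in Positive, so every Positive library lay above every Input library by a small margin. Mrps6 is one of the genes in the small sum, at 38.8, 34.96 and 36.3 CPM in Input and 13.8, 17.5 and 15.99 CPM in Positive. The ratio without Mrps6 is not given here, so the margin cannot be read as a shift of the small subunit as a whole. Within replicate numbers, the median log2 ratio over the members was -0.05, 0.05 and 0.02 for 1222, 1223 and 1227, beside 0.00, 0.05 and 0.02 over all genes.

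How libraries are scaled sets where 0 lies. The values above use TMM scaling, which assumes that most genes do not differ. With library size alone, the median of all genes moved by -0.16, to -0.13, and that of the members to -0.19. Then 0 members were higher and 6 were lower (Mrps6, Mrps12, Mrpl28, Mrps33, Mrpl3 and Mrpl18, the last named after its values were seen), while 53.1% of all genes were called, 19.7% higher and 33.4% lower. As plain shares of all counts, the members made up 0.184%, 0.197% and 0.201% of Input and 0.152%, 0.178% and 0.181% of Positive, so on this scale every Positive library lay below every Input library. Relative to all genes the members' median was -0.06 under both scalings. A further fit used only the genes with at least 50 counts in all 6 libraries, which changes the TMM factors too. There the median was -0.17 for 66 members and 0.01 for all 8509 genes, a distance of -0.19, and 0 members were higher and 4 lower, against 48% of all genes called (23.8% higher and 24.2% lower).

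The strongest difference was in Mrps6, the counterpart of bacterial ribosomal protein S6 in the small subunit (chr16:92058336-92112227, mm10, plus strand). It measured 38.8, 34.96 and 36.3 CPM in Input (1222, 1223 and 1227) and 13.8, 17.5 and 15.99 CPM in Positive. All 3 Positive libraries were far below all 3 Input libraries. The log2 fold change was -1.23 ± 0.17 (SE, n = 3 and 3), a fold of 0.426, with an adjusted p of 0.00032 by edgeR's quasi-likelihood test. Mrps6 was called lower under every one of the 17 alternatives run, with log2 fold changes from -1.39 to -1.10. The fit without a filter is among them and repeats the main fit, since the filter removed 0 genes.

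Mrps6 shares exon sequence with another gene. Slc5a3, which encodes a sodium-coupled myo-inositol transporter, has 159 exon bases in common with Mrps6 on the same strand (10.4% of the 1533 exon bases of Mrps6), and the annotated model Gm49711 has 305 (GENCODE M21). The start of Slc5a3, chr16:92058322, lies inside the promoter stretch printed above for Mrps6. How reads in shared exons were assigned is not given in the sources used here. Slc5a3 measured 27.2, 23.2 and 22.2 CPM in Input and 9.32, 23.5 and 9.90 CPM in Positive. Its Positive library 1223 lay at the Input level, unlike that of Mrps6, and the groups overlap. The log2 fold change was -0.82 ± 0.36 (SE, n = 3 and 3), with an adjusted p of 0.079 by edgeR's quasi-likelihood test.

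Mrpl28, the counterpart of bacterial L28 in the large subunit (chr17:26123503-26126613, plus strand), was the other member called lower. It measured 38.2, 48.9 and 43.3 CPM in Input and 24.6, 35.5 and 25.3 CPM in Positive. The highest Positive library, 1223, fell just short of the lowest Input library, so the groups do not overlap, and replicate 1223 was the highest in each fraction. The log2 fold change was -0.62 ± 0.19 (SE, n = 3 and 3), with an adjusted p of 0.0229 by edgeR's quasi-likelihood test. The call was lost without Input 1223 (adjusted p = 0.0582), Input 1227 (0.0664), Positive 1222 (0.0714) or Positive 1227 (0.0803), by the same edgeR test.

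Of the 3 members called higher, Mrpl4 had the tightest replicates (chr9:21002737-21008837, plus strand). Its bacterial counterpart L4 lines the tunnel through which the new protein leaves. It measured 35.5, 38.0 and 35.1 CPM in Input and 48.1, 44.6 and 49.1 CPM in Positive. The libraries of each fraction lay close together and the groups do not overlap. The log2 fold change was 0.39 ± 0.13 (SE, n = 3 and 3), a fold of 1.31, with an adjusted p of 0.0337 by edgeR's quasi-likelihood test.

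Mrps5, counterpart of bacterial S5, a protein near the decoding site in which mutations alter accuracy, lies on chr2:127587426-127603986 (plus strand). It measured 25.6, 31.6 and 26.2 CPM in Input and 46.4, 34.6 and 40.1 CPM in Positive. Positive 1223 came close to Input 1223, but no Positive library fell below an Input library. The log2 fold change was 0.56 ± 0.17 (SE, n = 3 and 3), a fold of 1.47, with an adjusted p of 0.0234 by edgeR's quasi-likelihood test.

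Mrpl44 is a mitochondria-specific protein of the large subunit related to ribonuclease III (chr1:79776018-79781445, plus strand). It measured 16.3, 22.8 and 17.7 CPM in Input and 26.3, 26.4 and 29.8 CPM in Positive. Input 1223 was the highest Input library and still lay below every Positive library. The log2 fold change was 0.56 ± 0.19 (SE, n = 3 and 3), a fold of 1.47, with an adjusted p of 0.035 by edgeR's quasi-likelihood test. Its exons overlap those of Wdfy1 on the opposite strand over 126 bases.

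The 3 higher calls rested on the scaling and on single libraries. With library size alone the log2 fold changes stayed above 0 but were smaller, at 0.23 for Mrpl4, 0.40 for Mrps5 and 0.40 for Mrpl44 (adjusted p = 0.179, 0.0795 and 0.108 by edgeR). All 3 calls were lost without Input 1222, without Input 1227, without Positive 1222 or without Positive 1227, which left 1 or 2 members called (Mrps6, and Mrpl28 without Input 1222), and where the log2 fold changes were 0.36 to 0.38 for Mrpl4, 0.44 to 0.56 for Mrps5 and 0.46 to 0.59 for Mrpl44. Over all genes those fits called 46.1% to 51.5%. Mrpl44 also lost its call without Positive 1223 (adjusted p = 0.0513 by edgeR), where 51.3% of all genes were called. Without the shallow replicate 1223 in both fractions, all 5 members were still called and Mrps25 joined them as lower, which made 6. In that fit 52.6% of all genes were called.

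**Figure D2:**
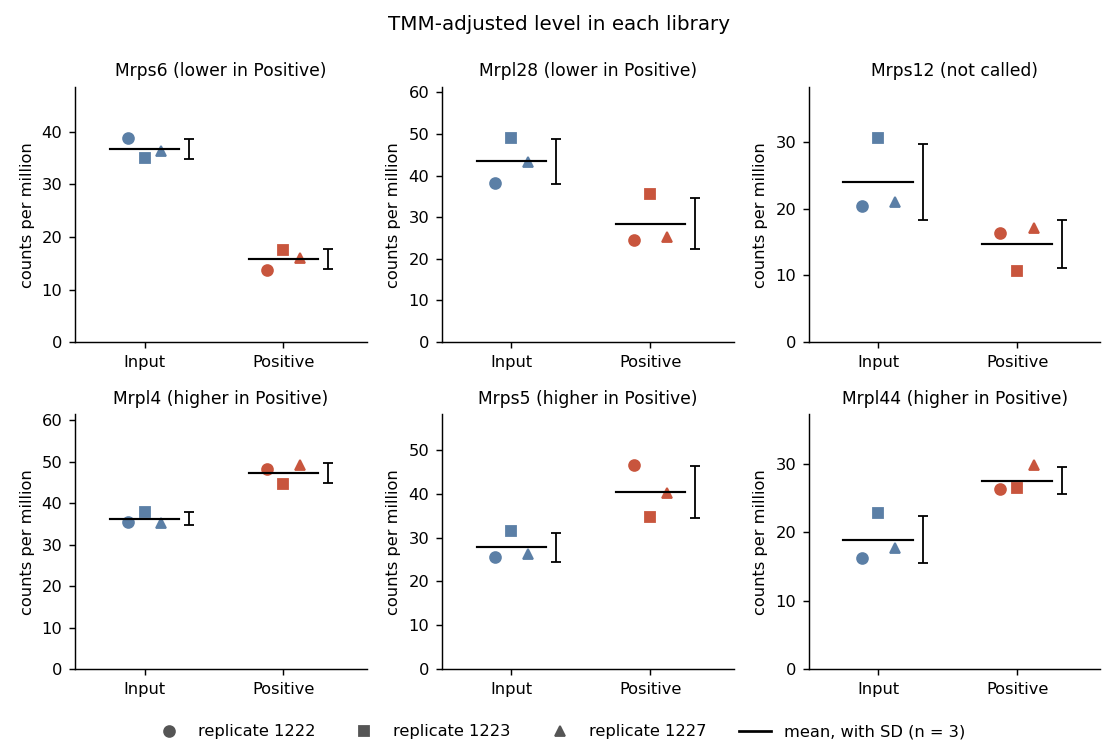
Level in TMM-adjusted CPM (y axis, from 0) in each Input and Positive library for the 5 called members and Mrps12. Symbols mark replicate numbers, the line is the mean and the bar beside it the SD (n = 3); the 3 Positive points lie wholly below the Input points for Mrps6, Mrpl28 and Mrps12, and wholly above for Mrpl4, Mrps5 and Mrpl44.

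Other proteins of the decoding side were as follows. Mrps12 is the counterpart of bacterial S12, the decoding-centre protein in which streptomycin resistance arises. It measured 20.4, 30.6 and 21.1 CPM in Input and 16.3, 10.6 and 17.2 CPM in Positive. The groups do not overlap, and replicate 1223 was the highest of the Input libraries and the lowest of the Positive ones. Its log2 fold change of -0.67 ± 0.26 (SE, n = 3 and 3) had an adjusted p of 0.0528 by edgeR's quasi-likelihood test, and it was called lower by DESeq2 (log2 fold change -0.68) and with library size alone (-0.82). Mrps7, counterpart of S7 in the head of the small subunit, was among the most abundant small subunit members at 37.6, 37.8 and 42.7 CPM in Input and 33.5, 37.3 and 36.1 CPM in Positive. These do not overlap, but by a narrow margin, and the log2 fold change of -0.15 ± 0.14 had an adjusted p of 0.397 by edgeR.

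The stalk of the large subunit is where translation factors dock. Mrpl12, counterpart of the L12 stalk protein and also described as a partner of the mitochondrial RNA polymerase, measured 32.2, 29.2 and 35.4 CPM in Input and 25.2, 30.2 and 31.0 CPM in Positive. Mrpl10, counterpart of L10, which anchors the stalk, measured 42.9, 41.6 and 50.7 CPM in Input and 42.0, 40.4 and 44.3 CPM in Positive. Mrpl11, counterpart of L11 at the stalk base, measured 20.6, 20.4 and 23.9 CPM in Input and 20.7, 32.8 and 24.5 CPM in Positive. The fractions overlap in all 3 genes, and none was called, with log2 fold changes of -0.17 (95% interval -0.55 to 0.20), -0.10 (-0.42 to 0.23) and 0.25 (-0.24 to 0.73).

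Around the catalytic core and the exit tunnel, Mrpl3, counterpart of L3 close to the peptidyl transferase centre, measured 29.7, 37.8 and 36.2 CPM in Input and 28.8, 29.3 and 27.2 CPM in Positive. It did not overlap and had a log2 fold change of -0.28 ± 0.16 (adjusted p = 0.166 by edgeR). Mrpl17, counterpart of L17 beside the tunnel exit, measured 39.1, 44.8 and 47.8 CPM in Input and 46.4, 49.7 and 57.0 CPM in Positive. Mrpl9, counterpart of L9, measured 43.2, 46.2 and 47.8 CPM in Input and 45.7, 45.5 and 55.8 CPM in Positive. Together with Mrpl10, the last 2 were the most abundant large subunit members by mean CPM, and their fractions overlap, with log2 fold changes of 0.22 and 0.10.

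Among the mitochondria-specific proteins, the abundant Mrps33 measured 35.8, 42.0 and 40.3 CPM in Input and 29.9, 29.9 and 34.1 CPM in Positive. It did not overlap and had a log2 fold change of -0.32 ± 0.15 (adjusted p = 0.0926 by edgeR). Mrps25 measured 42.9, 25.2 and 52.5 CPM in Input and 33.7, 32.2 and 33.7 CPM in Positive, so Input 1223 lay below all Positive libraries and the other Input libraries above them. Without Input 1223 its log2 fold change went from -0.29 to -0.52 and passed the threshold. Mrps25 shares 69.8% of its exon bases with Nr2c2 on the opposite strand, and whether counting used the strand is not given in the sources used here. Mrps34, a small subunit protein, shares 63.4% of its exon bases with Mapk8ip3 on the opposite strand and 37% with Nme3 on the same strand. The log2 fold change of Mrps34 was 0.04.

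For Mrpl42, the large subunit member nearest to 0, the log2 fold change was -0.02 with a 95% interval from -0.47 to 0.43, for Mrpl38 it was 0.02 (-0.37 to 0.41), and for Mrpl35 -0.03 (-0.47 to 0.42). In the small subunit the nearest to 0 were Mrps23 at 0.03 (-0.44 to 0.49), Mrps26 at -0.03 (-0.56 to 0.50) and Mrps17 at -0.04 (-0.60 to 0.53). Mrps17 measured 19.7, 31.8 and 21.8 CPM in Input and 19.5, 29.5 and 22.2 CPM in Positive. Here replicate 1223 was the highest of each fraction by a similar amount, and the fractions were otherwise alike.

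Some symbols do not name the place of the protein. Structures put Mrps18a and Mrps30 in the large subunit, and the product of Mrps36 is now known as a component of the 2-oxoglutarate dehydrogenase complex. Mrps18a had a log2 fold change of -0.24, Mrps18c, its paralogue in the small subunit, of 0.24, Mrps30 of 0.15 and Mrps36 of -0.35, and none was called. Grouped by structure, the large subunit had 47 genes with 2 higher, 1 lower and a median of -0.03, and the small subunit had 24 genes with 1 higher, 1 lower and a median of -0.07.

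The order of levels among the members was alike in the 2 fractions. Per kilobase of median coding-transcript length (GENCODE M21), levels ran from 3.17 to 59.8 CPM per kb in Input (median 22.9) and from 3.68 to 68.7 in Positive (median 20.4). Mrpl20 (59.8), Mrpl17 (59.1) and Mrpl52 (57.1) led in Input, Mrpl17 (68.7), Mrps21 (66.2) and Mrpl4 (58.0) led in Positive, and Mrpl1 (3.17 and 3.68) was lowest in both. Of the top 10 genes, 9 were shared by the fractions, and Spearman's rho across the 72 genes was 0.936. This is a description across genes, which are not replicates and share their lengths in both fractions. The largest shift was that of Mrps6, by 32 ranks. The ratio of the median large to the median small subunit level per kb was 1.55, 1.47 and 1.32 in Input and 1.55, 1.61 and 1.33 in Positive, which overlap.

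**Figure D3:**
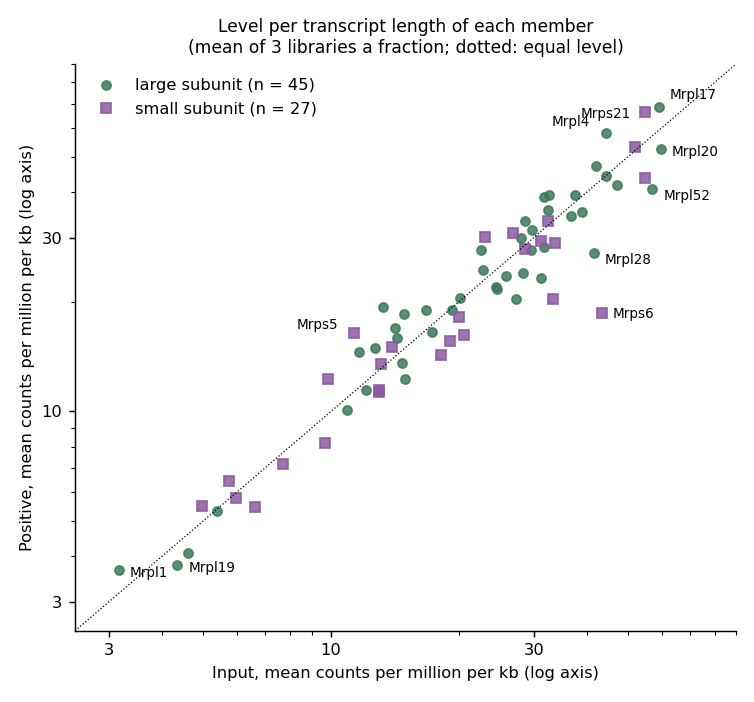
Mean level per kilobase of transcript in Input (x axis) and Positive (y axis), both log axes in CPM per kb, for the 45 large (circles) and 27 small (squares) subunit genes, means of 3 libraries. Most points lie along the dotted line of equal level, Mrpl1 lies at the bottom (3.17 and 3.68), and Mrps6 stands farthest below the line.

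The cytosolic ribosome and the respiratory chain are the gene groups nearest to these in function, and their values are set side by side without a test of the difference. Of 77 cytosolic ribosomal protein genes (symbols Rpl, Rps and Rplp), 76 had a log2 fold change above 0, 19 were called higher and 0 lower, and the median was 0.39. The share called higher, 24.7%, was near the 26.1% of all genes. With the replicate number as a block, 61 of the 77 were called higher and 0 lower, against 30% of all genes higher and 31.7% lower in that fit (61.7% called). With library size alone, 4 of the 77 were called higher and 0 lower, against 19.7% and 33.4% of all genes. The median of the 77 was then 0.24, beside -0.13 over all genes. With 1 library left out, the count of higher calls ran from 4 (without Input 1222 or Positive 1227), 5 (without Positive 1223) and 9 (without Input 1227) to 26 (without Input 1223) and 41 (without Positive 1222), with medians from 0.27 to 0.55. Of 78 nuclear genes of oxidative phosphorylation, 4 were called higher and 30 lower (38.5%, against 29.4% of all genes), with a median of -0.39. With the replicate block 5 were higher and 45 lower. With library size alone 2 were higher and 47 lower, against 19.7% and 33.4% of all genes. The median of the 78 was then -0.54, beside -0.13 over all genes. With 1 library left out, the count of lower calls ran from 16 (without Input 1227) and 17 (without Positive 1222) to 36 (without Input 1222), with medians from -0.48 to -0.27. Over all genes, 46.1% to 54% were called in the fits with 1 library left out. In replicates 1222, 1223 and 1227 the median log2 ratio was 0.33, 0.41 and 0.46 for the cytosolic group, -0.42, -0.36 and -0.32 for oxidative phosphorylation, and -0.05, 0.05 and 0.02 for the mitochondrial ribosome. The 3 groups kept this order in each replicate number.

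**Figure D4:**
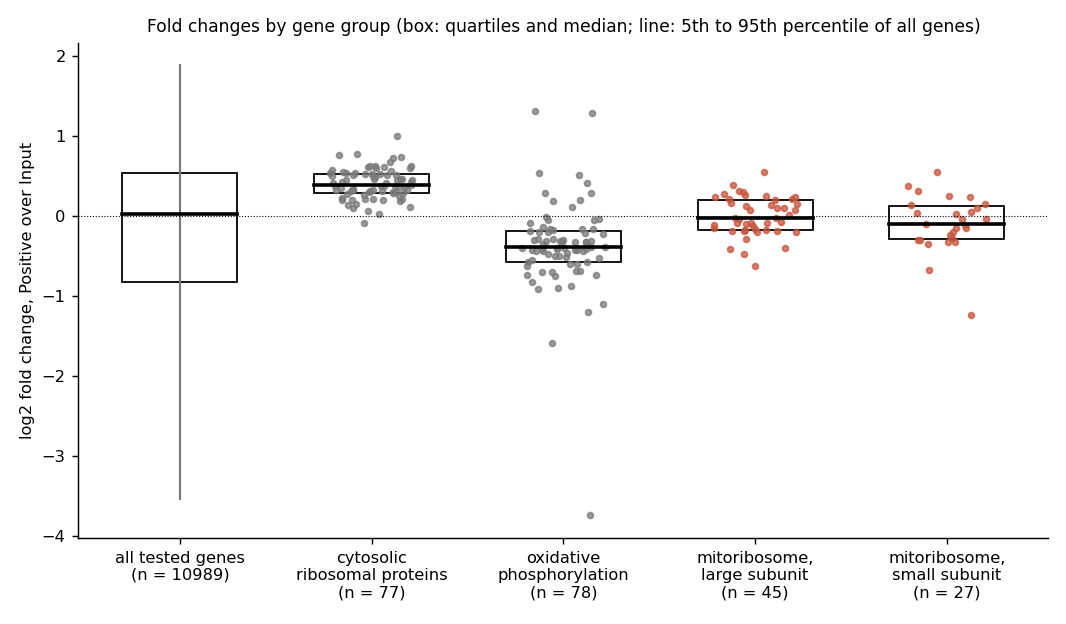
Log2 fold change (Positive over Input, y axis) of all 10989 genes (box and line only), 77 cytosolic ribosomal protein genes, 78 oxidative phosphorylation genes and the large (45) and small (27) subunit genes of the mitochondrial ribosome. Points are genes and boxes are quartiles with the median; medians are 0.39 for the cytosolic ribosome, -0.39 for oxidative phosphorylation, -0.03 for the large and -0.10 for the small subunit.

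Some proteins of the mitochondrial ribosome have symbols outside the name rule. Of 10 symbols listed, 8 were tested: Dap3, Ptcd3, Chchd1, Aurkaip1, Gadd45gip1, Ict1, Mrp63 and the membrane insertase Oxa1l, which receives the new proteins. The remaining symbols are later names of Ict1 and Mrp63, so no listed gene was absent. In either direction 0 were called by edgeR with TMM scaling on all 6 libraries, where 0 also had an unadjusted p below 0.05, or by DESeq2. The median log2 fold change was -0.17. Dap3 was called lower by edgeR with library size alone (-0.45) and among genes with at least 50 counts in all libraries (-0.44), Dap3 (-0.34), Ptcd3 (-0.48) and Mrp63 (-0.51) were called lower by limma-voom, and Mrp63 (-0.65) was called lower by edgeR without Positive 1223, as was Ptcd3 (-0.56) without replicate 1223 in both fractions. Oxa1l had the highest mean level over both fractions, at 49.4, 28.4 and 55.9 CPM in Input and 54.3, 64.1 and 50.8 CPM in Positive. Those ranges overlap, with Input 1223 well below the other libraries.

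Among 10 mitochondrial translation factors tested of 13 listed, 3 were called higher and 1 lower, with a median of 0.33. Mtrf1l, a release factor that ends translation, had a log2 fold change of 0.80 ± 0.30 (adjusted p = 0.0479 by edgeR, and 0.0636 with the replicate block). Mtrf1l passed the filter of the table through Positive alone, where it is high. Mrrf, the ribosome recycling factor, had one of 0.70 ± 0.21 (adjusted p = 0.0213 by edgeR), and Gfm1, the translocation factor EF-G1, one of 0.41 ± 0.15 (adjusted p = 0.0497 by edgeR). Gfm2, the other EF-G, which acts with Mrrf in recycling, moved the opposite way: 43.1, 37.2 and 33.99 CPM in Input and 23.2, 26.6 and 15.99 CPM in Positive, a log2 fold change of -0.81 ± 0.22 (SE, n = 3 and 3; adjusted p = 0.0122 by edgeR). Mrrf measured 15.9, 20.98 and 18.4 CPM in Input and 23.3, 35.5 and 31.2 CPM in Positive. Neither Mrrf nor Gfm2 overlapped between fractions, which was also so for 64.4% of all genes. Tufm, the elongation factor EF-Tu and the most abundant of the list by its mean over both fractions, was not called at -0.40 ± 0.20 (adjusted p = 0.122 by edgeR). Gfm2 kept its call with any 1 library left out (log2 fold change -0.96 to -0.62) and with library size alone. The 3 higher calls were lost with library size alone and without several single libraries: any but Input 1223 for Gfm1, any but Positive 1227 for Mtrf1l, and any but Input 1223 and Positive 1222 for Mrrf.

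Of 16 genes tested of 22 listed for the charging of mitochondrial tRNAs, which are aminoacyl-tRNA synthetases and Gatc, a subunit of an amidotransferase, 3 were higher and 1 lower, with a median of 0.20. Gars (0.56 ± 0.15) and Kars (0.53 ± 0.12) rose and serve the cytosol as well as mitochondria, and Iars2 (0.48 ± 0.16), the mitochondrial isoleucine enzyme, also rose. Fars2, the mitochondrial phenylalanine enzyme, fell from 30.3, 37.2 and 31.3 CPM in Input to 15.2, 18.4 and 17.5 CPM in Positive, a log2 fold change of -0.95 ± 0.18 (adjusted p = 0.00182 by edgeR's quasi-likelihood test, n = 3 and 3). The 2 fractions of Fars2 lay far apart, and Fars2 and Kars kept their calls with any 1 library left out. Gars lost its call without Input 1227, and Iars2 lost its call with library size alone and without Input 1223, Input 1227, Positive 1222 or Positive 1227. Lars2, the leucine enzyme, had by far the highest level of the list and was erratic, with 123, 805 and 134 CPM in Input and 951, 608 and 554 CPM in Positive. Input 1223 lay inside the Positive range, and the log2 fold change of 1.0 ± 0.67 was not called (adjusted p = 0.238 by edgeR), whereas without Input 1223 it was 2.45 and was called.

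For ribosome assembly and ribosomal RNA modification, 20 genes were tested. The 35 symbols listed include older and newer names of the same genes. Of the 20 genes, 0 were higher and 2 lower, with a median of 0.00. Fastkd2, which binds the large ribosomal RNA during assembly, measured 11.6, 11.99 and 11.7 CPM in Input and 5.61, 4.21 and 4.66 CPM in Positive. The fractions were well separated, with a log2 fold change of -1.26 ± 0.28 (SE, n = 3 and 3; adjusted p = 0.00448 by edgeR), but the gene passed the filter of the table through Input alone. Clpp, the matrix protease, fell by 0.55 on the log2 scale (SE 0.16, adjusted p = 0.0157 by edgeR), a call lost without Input 1227 or Positive 1222. Dhx30, an RNA helicase of ribosome assembly and the most abundant of the list, measured 79.3, 70.5 and 73.2 CPM in Input and 83.7, 81.4 and 78.5 CPM in Positive, with a log2 fold change of 0.13 ± 0.12 that was not called. Those ranges overlap only at their edge.

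Of 16 genes of mitochondrial transcription and RNA handling tested, 1 was higher and 1 lower, with a median of 0.00. The 24 symbols listed include older and newer names of the same genes. Polg, the mitochondrial DNA polymerase, was higher at 0.90 ± 0.24 (adjusted p = 0.013 by edgeR). Lrpprc, which stabilises mitochondrial messenger RNA, was lower, at 70.2, 71.1 and 69.5 CPM in Input and 45.2, 52.3 and 44.3 CPM in Positive (log2 fold change -0.58 ± 0.13, n = 3 and 3, adjusted p = 0.0052 by edgeR). The libraries of each fraction lay close together. Grsf1, which binds RNA in mitochondrial granules and was the most abundant of the list, measured 79.8, 79.7 and 69.4 CPM in Input and 81.0, 70.3 and 76.3 CPM in Positive. These ranges overlap almost throughout.

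The list of regulators of mitochondrial genes holds transcription factors, the coactivators Ppargc1a and Pprc1, the matrix protease Lonp1, and Clpx. Of 13 listed, 12 were tested, and 6 were called higher and 3 lower, with a median of 0.36. Both subunits of GABP, an ETS factor, rose, with log2 fold changes of 0.52 ± 0.14 for Gabpa, 1.11 ± 0.14 for Gabpb1 and 0.84 ± 0.22 for its paralogue Gabpb2. Nrf1, the factor of the NRF1 core, measured 28.8, 39.6 and 24.3 CPM in Input and 47.8, 49.4 and 42.0 CPM in Positive (log2 fold change 0.60 ± 0.20, n = 3 and 3, adjusted p = 0.0306 by edgeR). The call of Nrf1 was lost with library size alone (log2 fold change 0.45) and without Input 1222, Input 1227, Positive 1222 or Positive 1223, and that of Gabpa with library size alone (0.36) and without Positive 1222. Yy1 (0.69 ± 0.13) and Max (0.88 ± 0.14) were higher too, and the Positive libraries of each lay above all Input libraries. Ppargc1a, the coactivator known for driving mitochondrial biogenesis, was at 30.8, 29.6 and 22.7 CPM in Input and 2.67, 3.55 and 1.01 CPM in Positive (log2 fold change -3.64 ± 0.42, n = 3 and 3, adjusted p = 0.000117 by edgeR). Myc fell by 1.97 on the log2 scale and Esrra by 0.65, and Ppargc1a and Myc passed the filter of the table through 1 fraction alone. The other 7 regulator calls held with any 1 library left out.

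Each list of other genes can be read against the same background, 55.5% of all genes called. Over the 82 genes of the 6 lists together, 13 were higher and 8 lower (median log2 fold change 0.09), and 9 of these 21 calls were among the 12 regulators. Without Input 1227 the higher calls numbered 7, in a fit where 46.1% of all genes were called. Without replicate 1227 in both fractions there were 4 higher and 4 lower, where 37.6% of all genes were called.

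**Figure D5:**
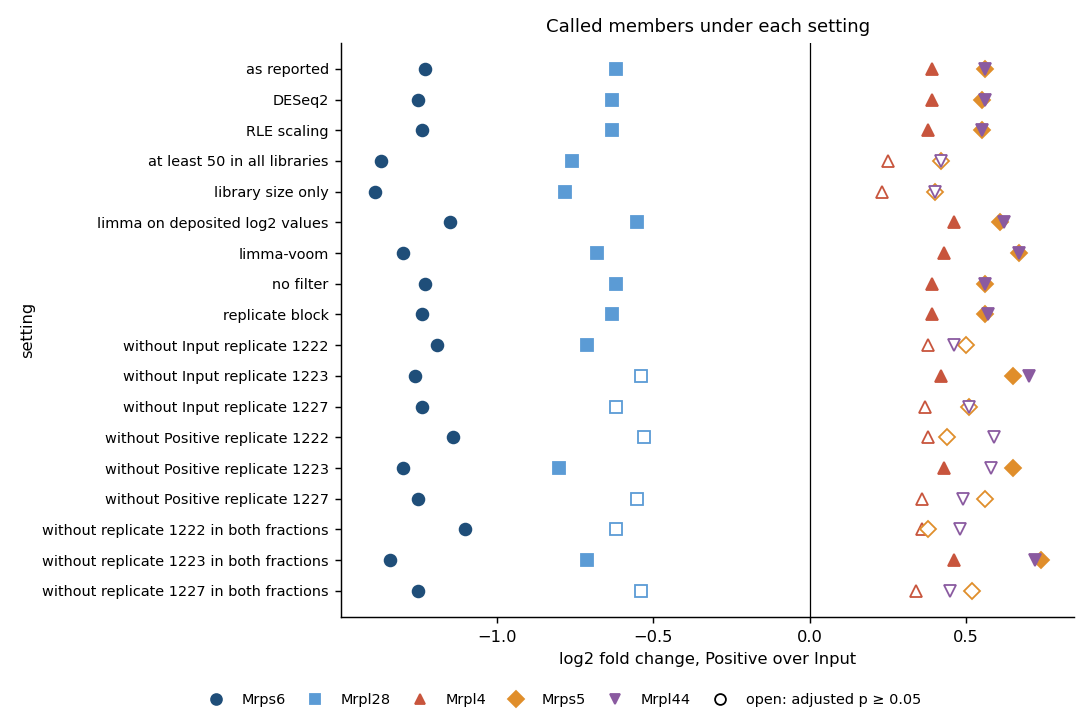
Log2 fold change (Positive over Input, x axis) of the 5 called members as reported and under each alternative (y axis). Filled symbols have an adjusted p below 0.05 and open ones do not; Mrps6 is filled in every row, from -1.39 to -1.10.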

How the data were processed

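The deposited table gives estimated counts (raw columns, mostly not whole) and log2 values. The table was filtered to genes with at least 50 counts in every library of at least 1 fraction, per the file headers, and all 10989 genes meet this. The build is mm10 and the tools named include DESeq, per the submitters' processing notes. Aligner, counter and use of strand: not given in the sources used here. A check found that the deposited log2 values differ from log2 estimated counts by 1 factor per library and 1 constant per gene. They served only as an alternative.

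Estimated counts were rounded and tested with edgeR 4.0.16 in R 4.3.3: TMM scaling (factors 0.94 to 1.08), filterByExpr with a minimum count of 10 (0 genes removed), the quasi-likelihood test of fraction, and Benjamini-Hochberg adjustment over all 10989 genes with a threshold of 0.05. CPM uses TMM-adjusted library sizes. The script was tested on simulated data. Alternatives used DESeq2 1.42.0, limma 3.58.1, other scalings, filters and left-out libraries. Same-numbered libraries deviated together (correlations 0.45, 0.23 and 0.3; highest other 0.02), so the numbers in the titles were taken to pair them. Deviations were taken from the mean of each fraction, so the other correlations are not an independent baseline. The main fit has no block on the replicate number, and its p-values and SE do not use the pairing. The fit with the block is an alternative. The members and lists were chosen with earlier results of these data known. Named genes are the called members, the 3 most abundant and the 3 nearest to 0 of each subunit, members of known role fixed by name, and of each other list the called genes (at most 4 a direction) and the most abundant by mean CPM. Nrf1, Gabpa and other genes singled out by a rank or a small count were named after their values were seen.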

Additional observations from a re-analysis of the deposited data

How the results depend on the processing

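Mrps6 kept its call in all 17 alternatives, of which the fit without a filter equals the main fit. Where the fit was repeated on genes with at least 50 counts in all 6 libraries, 66 members were tested. Of these, 0 were higher and 4 lower (large 0 and 2, small 0 and 2), with medians of -0.17 (large) and -0.17 (small). Over all genes the median was 0.01 and 48% were called. Of the genes in the 6 other lists, 7 were higher, of which 5 were regulators and 0 were translation factors. With library size only, 0 members were higher and 6 lower (large 0 and 3, small 0 and 3), with medians of -0.18 and -0.25. Of the other genes, 7 were higher, of which 4 were regulators and 0 were translation factors, and 14 were lower. In that fit 53.1% of all genes were called. DESeq2 gave 2 small subunit genes lower, limma-voom 13 other genes lower, and limma on the deposited log2 values medians of 0.06 (large) and -0.04 (small). Over all genes these fits called 57.7%, 60.4% and 53.6%. The cause was not tested. With the replicate block, 3 members were higher and 2 lower, and it changed the call of no member and moved no count of members, though 15 other genes were higher and 11 lower (Pdf, Hars2, Noa1, Mpv17l2, Spg7, Hsd17b10 gained a call and Mtrf1l lost one). The block fit called 61.7% of all genes.

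Leaving out 1 library, or 1 number in both fractions, gave 0 to 3 members higher and 1 to 3 lower (large 0 to 2 and 0 to 1, small 0 to 1 and 1 to 2), medians of -0.07 to 0.05 (large) and -0.17 to 0.06 (small), and 4 to 14 other genes higher and 4 to 9 lower. Over all genes these fits called 37.6% to 54%. Without replicate 1222 in both fractions, 8 other genes were higher. None of the 5 called members changed sign. Depth limits replicate 1223, where the median member has 123 and 114.6 counts.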
